A study of Homo sapiens with 9 samples.

Results

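Aminoacyl-tRNA synthetases, the enzymes that load each tRNA with its amino acid, were followed at the transcript level in HepG2 cells cultured with Gln or deprived of it. The genes were chosen by symbol, as a single-letter amino acid code followed by ARS and an optional 1 or 2, with EPRS1, FARSA, FARSB, FARS2, TARS3 and the scaffold proteins AIMP1, AIMP2 and EEF1E1 added by name. This gave 41 of the 22587 genes in the deposited table, of which 39 are described. Among the 39, 20 encode cytosolic synthetases, 16 encode mitochondrial synthetases, marked by a final 2, and 3 encode scaffold proteins of the cytosolic multi-synthetase complex. AIMP2 also ends in 2 and was counted as a scaffold protein, and GARS1 and KARS1, which serve both compartments, were counted as cytosolic. All 39 genes passed the filter on low values, at least 0.5 FPKM on average in the 9 libraries (FPKM are fragments divided by gene length and library depth), as did 11880 genes in all.

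HepG2 cells are an established human line grown from a liver tumor, and a single line limits these data as a model of such tumors. RNA of 9 libraries was sequenced, 3 of cells in normal medium (Gln added), 3 of cells after 12 h and 3 after 24 h of Gln deprivation in Gln-free medium, with high-glucose DMEM and serum as the common growth medium. The labels list GlutaMAX, a stable dipeptide that supplies Gln, for the libraries with Gln added, while the treatment protocol and the methods place it in the Gln-free medium. No source says whether replicates were separate cultures, so the p-values measure the spread between these libraries, which may be technical. The time of harvest and any medium change of the cells with Gln added are not given either, so the effects of a medium change and of Gln cannot be told apart.

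Depth ranged from 29621270 to 36261546 fragments on genes per library, and the values of the 39 genes rested on 179 (PARS2) to 17637 fragments (IARS1). With Gln added, the liver markers ALB and APOA1 stood at 3830.5 and 1339 FPKM, while COL1A1, COL1A2 and DCN of fibroblasts were at 0 in every library of that group. Of 9 markers of other cell types, 7 were in the table and 2 passed the filter, CD68 and ACTA2, which many cell types also make. The summed level of these 7 genes was 71.2 to 73.2 FPKM with Gln added, 52.0 to 57.8 after 12 h and 43.0 to 47.7 after 24 h, and its part in the results was not tested. Nearly all of it came from CD68 and ACTA2, at 36.1 and 35.9 FPKM with Gln added. ALB and APOA1 were lower as well, at 3350.4 and 1042.2 FPKM after 12 h and 3341.9 and 1007.5 after 24 h. By the limma test described below, 4 of 7 liver markers were lower and 0 higher at each time, while 31% and 31.7% of all genes were lower. In bulk RNA, fewer cells of a type and less RNA per cell cannot be told apart.

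Each amino acid has its synthetase, and most have one gene for the cytosol and another for mitochondria, both encoded in the nucleus. In the cytosol, several synthetases are held with AIMP1, AIMP2 and EEF1E1 in the multi-synthetase complex, and EPRS1 loads both Glu and Pro. Uncharged tRNA activates the kinase GCN2 (EIF2AK4), which slows translation and favours synthesis of the transcription factor ATF4. ATF4 and its partners of the C/EBP family, CHOP (DDIT3) among them, bind a composite site in many genes of amino acid transport, amino acid synthesis and tRNA charging, known as the C/EBP-ATF response element.

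Promoter sequences are shown for 6 cytosolic synthetase genes that rose by at least 0.5 on the log2 scale at 12 h and hold that element, and for GARS1 and RARS1, which do not hold it and moved in opposite directions. The sequences were taken from RefSeq (GRCh38.p14), which gave a promoter window of 250 bases before and 50 bases after the start of the gene for 33 of the 39 genes. YARS1, LARS1, VARS1, TARS3, AARS2 and VARS2 had none in the table used. Capitals mark the letters of the element, TGATGNAA or its reverse complement, where N is any base, and each line gives 90 bases 5′ to 3′ on the strand of the gene. The windows are chr12:57488008-57488097 (plus strand) for MARS1, chr11:3057394-3057483 (minus strand) for CARS1, chr5:33440905-33440994 (plus strand) for TARS1 and chr9:92293668-92293757 (minus strand) for IARS1. Those of the other genes are chr18:57621807-57621896 (minus strand) for NARS1, chr16:70289637-70289726 (minus strand) for AARS1, chr7:30594675-30594764 (plus strand) for GARS1 and chr5:168486411-168486500 (plus strand) for RARS1. All run from 60 bases before to 30 bases after the start, except that of AARS1, which lies further upstream.
MARS1: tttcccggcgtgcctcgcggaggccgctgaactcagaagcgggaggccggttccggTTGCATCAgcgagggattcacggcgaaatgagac
CARS1: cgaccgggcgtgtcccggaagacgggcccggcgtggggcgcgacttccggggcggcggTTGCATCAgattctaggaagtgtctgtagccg
TARS1: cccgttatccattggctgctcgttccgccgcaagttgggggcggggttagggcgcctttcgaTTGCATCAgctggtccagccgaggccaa
IARS1: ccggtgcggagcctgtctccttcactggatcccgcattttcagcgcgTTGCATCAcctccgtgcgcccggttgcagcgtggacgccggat
NARS1: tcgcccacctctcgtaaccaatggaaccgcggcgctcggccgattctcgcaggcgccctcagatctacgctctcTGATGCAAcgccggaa
AARS1: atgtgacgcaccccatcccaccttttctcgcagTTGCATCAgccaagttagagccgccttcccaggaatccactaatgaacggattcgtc
GARS1: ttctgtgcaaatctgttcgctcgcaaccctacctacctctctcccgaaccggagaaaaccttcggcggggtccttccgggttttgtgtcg
RARS1: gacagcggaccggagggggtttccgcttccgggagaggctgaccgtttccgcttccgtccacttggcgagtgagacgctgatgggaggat
In MARS1, CARS1, IARS1, TARS1 and AARS1 the same 8 letters, TTGCATCA, lay on the strand of the gene, and in NARS1 their reverse complement, TGATGCAA. Relative to the start, counted as base 1, the element lay at -4 to 4 in MARS1, -2 to 6 in CARS1, 3 to 10 in TARS1, -13 to -6 in IARS1, 15 to 22 in NARS1 and -187 to -180 in AARS1. Thus 5 of the 6 matches fell within 22 bases of the RefSeq start, and only that of AARS1 lay well upstream of it among these genes. The GENCODE v44 annotation begins these genes further upstream than RefSeq does. It begins AARS1 at 70289707 and MARS1 at 57475445, and by GENCODE the matches of all 6 genes lie within the gene.

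In the 300-base windows, the element was found in 7 of 33 promoters (21.2%), against 3.67% of all 27305 promoters and 1.63% of those of 9543 tested genes. The seventh gene was YARS2, the mitochondrial tyrosyl enzyme, with TGATGGAA at -197 to -190. Of the 11 genes with a promoter that were higher by at least 0.5 at 12 h, 6 held it, and of the other 22, 1 did. In the 250 bases before the start alone it was in 3 of 33, against 3.19% of all promoters and 1.31% of those of tested genes, and in 2 of the 11. The AP-1 motif TGANTCA was found in 0 of 33 promoters, against 7.76% of all promoters and 4.37% of those of tested genes. The cAMP response element TGACGTCA, which reads the same on both strands and holds neither of the other motifs, was found only in that of AIMP2 among the 33 (3.03%), against 1.98% of all promoters and 3.32% of those of tested genes. These are matches of letters, not sites of binding.

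Among the cytosolic genes, the 6 with the element had a median log2 change of 1.00 at 12 h and 1.03 at 24 h. For the 10 cytosolic genes whose window lacked it, the medians were 0.21 and 0.27, and their changes at 12 h ran from -0.49 to 1.52. GARS1 and SARS1 had no match in the window and rose by 1.52 and 1.36 at 12 h, within the range of the genes that had one. At each time, all 6 cytosolic genes with a match rose by at least 0.5, as did 4 of the 10 without it. Another 4 cytosolic genes, YARS1 and LARS1 among them, had no window. Whether a match bears on the rise was not tested.

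To ask how the charging machinery responded, each group of Gln-deprived libraries was compared with Gln added by limma on log2(FPKM + 0.1), with Benjamini-Hochberg adjustment over the 11880 genes tested. Both comparisons use the same 3 libraries with Gln added, so their values are given side by side. With Gln added, mean levels ran from 1.44 FPKM for FARS2, the mitochondrial phenylalanyl enzyme, to 90.5 FPKM for QARS1, the cytosolic glutaminyl enzyme. The most abundant mitochondrial synthetase was IARS2 at 74.5 FPKM, and the other 15 lay at or below 27.4 FPKM.

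At 12 h, 18 of the 39 genes were higher and 13 lower at an adjusted p under 0.05 from limma, against 29.1% of all genes tested higher and 31% lower. At 24 h the counts were 17 higher and 13 lower, against 33% and 31.7%. Changes of at least 0.5 on the log2 scale were found in 12 genes upwards and 1 downwards at 12 h, against 9.65% and 10.8% of all genes. At 24 h there were 13 and 1 such genes, against 12.6% and 12.4%. The share of lower genes was therefore near that of all genes, while large rises were more frequent and large falls less frequent among the 39. Their median log2 change was 0.03 at 12 h and 0.08 at 24 h, beside -0.02 and 0.01 over all genes.

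No overlap between the groups was seen at 12 h for 18 genes with every Gln-deprived library above those with Gln added, and for 13 genes with every one below. Over all genes tested the shares were 32.8% and 34.4%. At 24 h, 18 genes lay above and 14 below without overlap, against 35.7% and 34.1% of all genes.

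**Figure D1:**
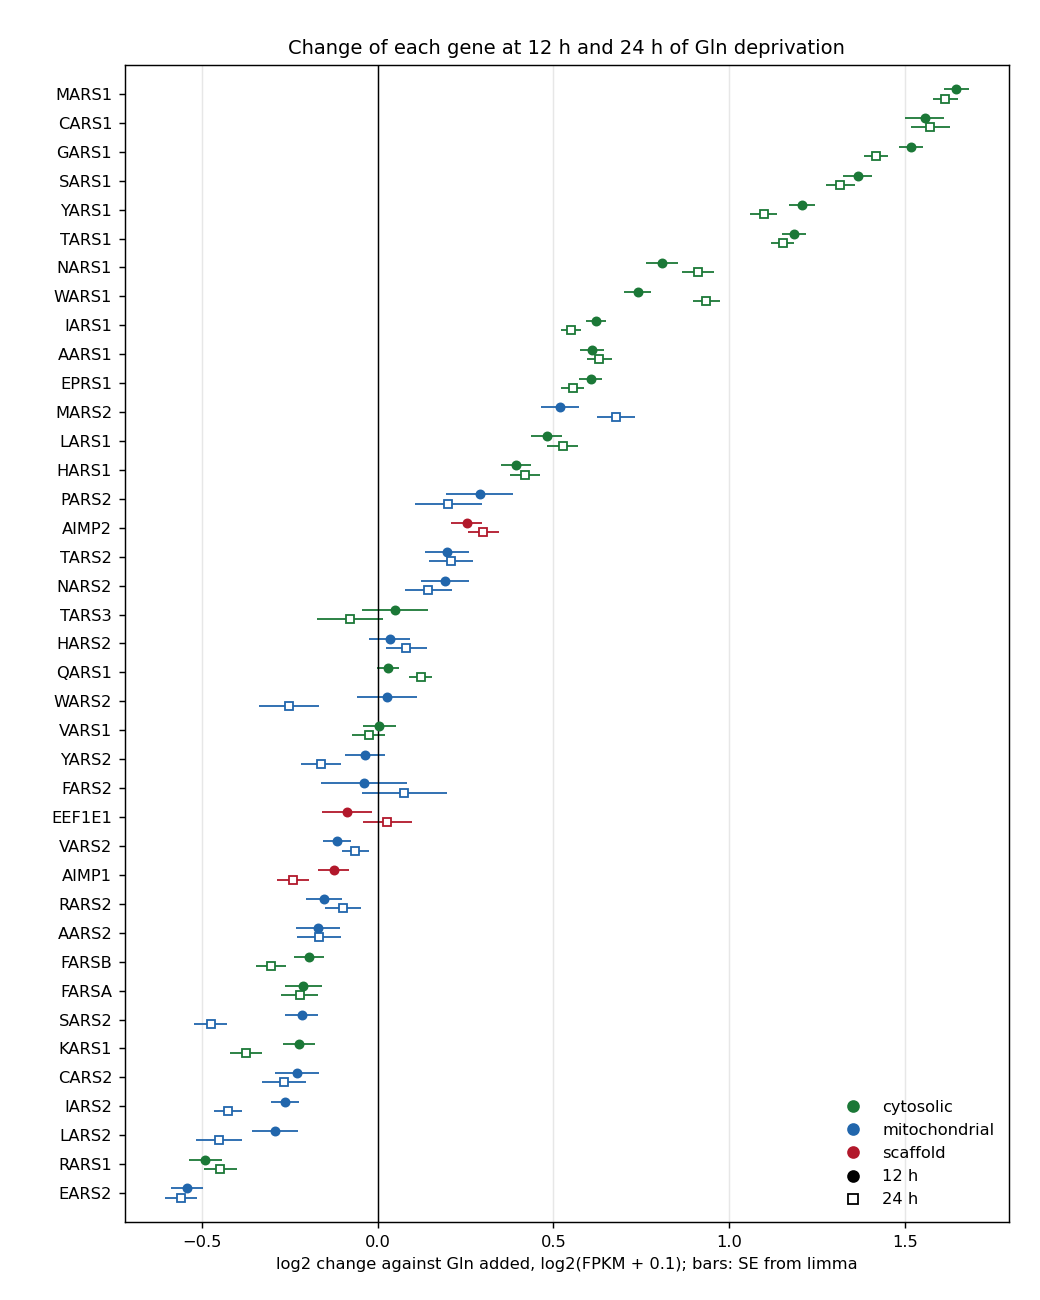
The log2 change against Gln added (x axis, log2(FPKM + 0.1) scale) is plotted for each of the 39 genes at 12 h (filled circles) and 24 h (open squares), with bars for the SE from limma and colors for cytosolic, mitochondrial and scaffold genes. MARS1 is at the top with 1.65 and EARS2 at the bottom with -0.54 at 12 h, and the cytosolic genes fill the upper rows.

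In counts, rises prevailed among the cytosolic and falls among the mitochondrial enzymes. Of the 20 cytosolic synthetases, 13 rose, 4 fell and 3 did not pass the test at 12 h, with a median log2 change of 0.61. At 24 h, 14 rose, 4 fell and 2 did not pass, with a median of 0.55. Of the 16 mitochondrial synthetases, 4 rose, 8 fell and 4 did not pass at 12 h, and 2 rose, 8 fell and 6 did not pass at 24 h. Their medians were -0.08 and -0.13. Of all genes tested, 29.1% were higher and 31% lower at 12 h, and 33% and 31.7% at 24 h. Against these shares, rises were more frequent and falls less frequent among the cytosolic genes at both times. Among the mitochondrial genes, falls were more frequent at both times. Mitochondrial rises were near the share of all genes at 12 h and less frequent at 24 h.

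Summed over the 20 cytosolic genes, transcript levels were 947, 936 and 953 FPKM in the libraries with Gln added, 1568, 1568 and 1559 after 12 h and 1587, 1524 and 1531 after 24 h. Every Gln-deprived library lay above every library with Gln added, at 1.66 times the mean at 12 h and 1.64 times at 24 h. The 16 mitochondrial genes summed to 233, 233 and 238 FPKM with Gln added, 217, 212 and 216 after 12 h and 212, 201 and 206 after 24 h. Here every Gln-deprived library lay below, at 0.916 and 0.879 of the mean with Gln added. For either sum and time a two-sided exact permutation test of 3 libraries against 3 cannot give a p below 0.1.

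The rise in the cytosolic sum came from a subset of its genes. A list of 12 cytosolic synthetases known as ATF4 and CHOP targets summed to 597 ± 6.53 FPKM (SD, n = 3) with Gln added, to 1235 ± 1.46 after 12 h and to 1217 ± 26.3 after 24 h. All 12 rose at both times, with median log2 changes of 1.00 and 1.02. This list was taken from general knowledge, with earlier results of these data known. Its 12 genes are the very cytosolic synthetases with a rise of at least 0.5 at 24 h. That all 12 rose is therefore no test of the list. The other 8 cytosolic synthetases summed to 348 ± 2.40, 330.5 ± 4.42 and 330.6 ± 9.24 FPKM. Of these, HARS1 rose and RARS1, KARS1, FARSA and FARSB fell at 12 h, and QARS1 joined the rise at 24 h.

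**Figure D2:**
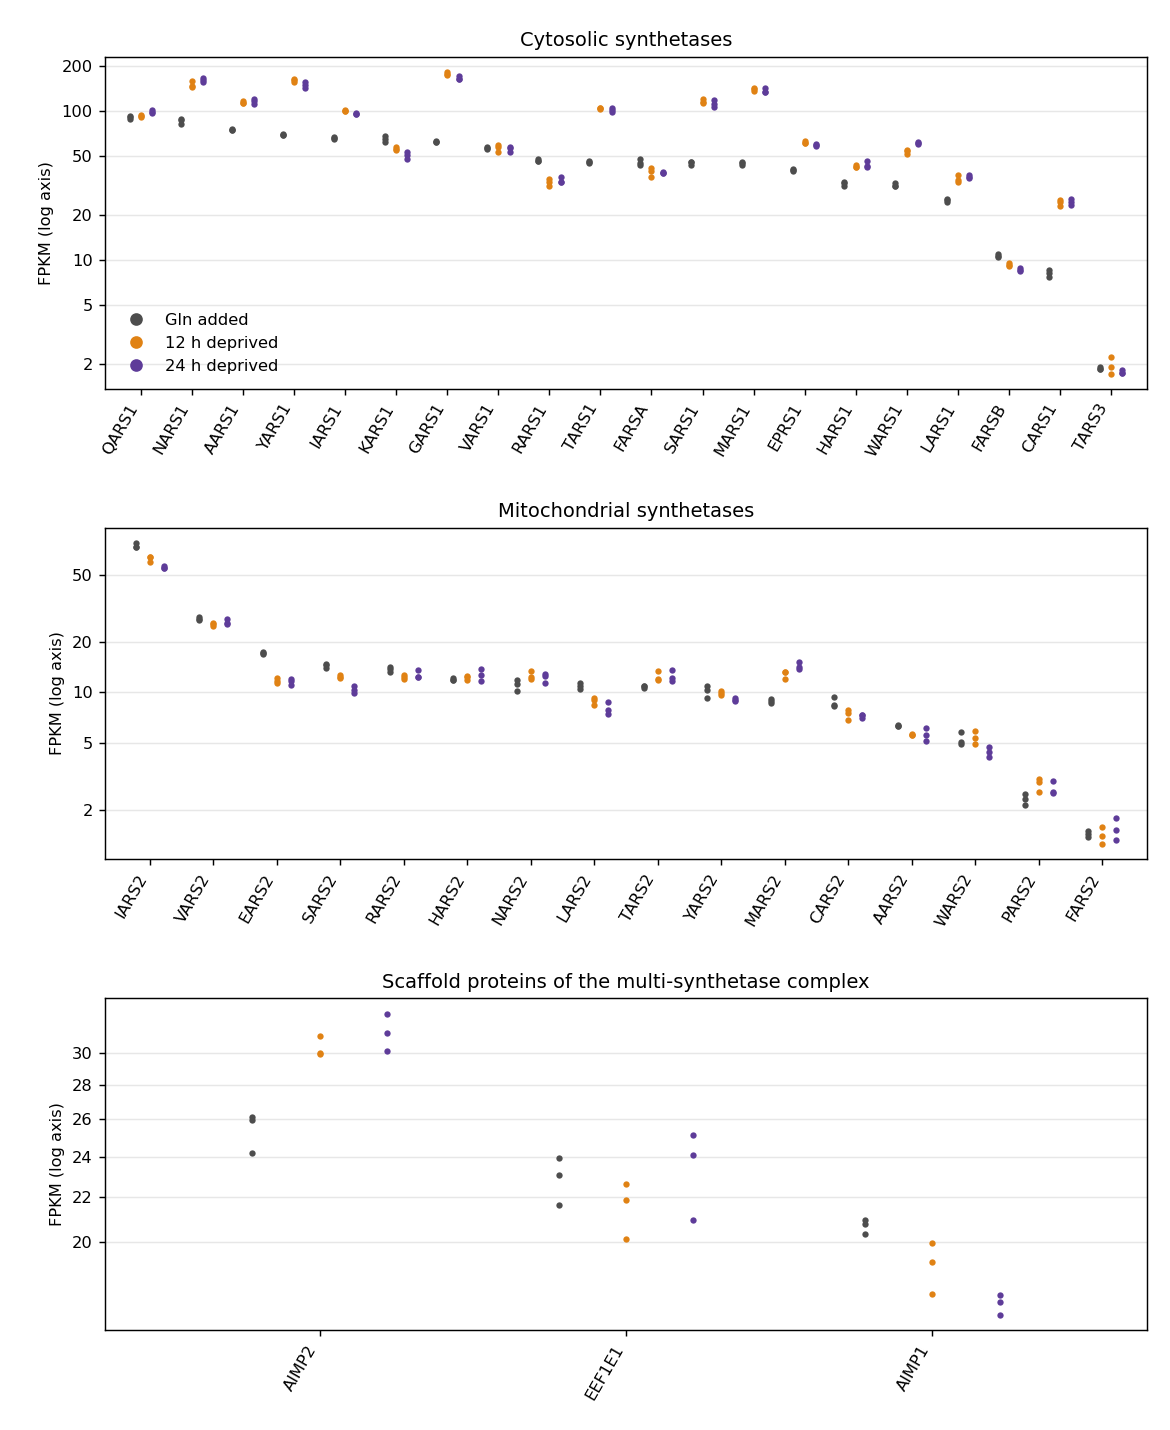
FPKM (log axis) of each cytosolic synthetase, mitochondrial synthetase and scaffold gene is plotted for every library, with gray points for Gln added, orange for 12 h and purple for 24 h of Gln deprivation, and genes ordered by their mean with Gln added. MARS1 goes from a mean of 44.4 FPKM to 139 and 136, while QARS1 goes from 90.5 to 92.4 and 98.6.

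Gln itself is charged by QARS1 (chromosome 3, 49095932 to 49105130, minus strand, GRCh38, GENCODE v44). Its level was 88.2, 91.4 and 91.97 FPKM with Gln added, 91.9, 94.2 and 91.2 after 12 h and 101, 97.1 and 98.03 after 24 h. The groups overlapped at 12 h, and at 24 h every library lay above those with Gln added. After 12 h the log2 change was 0.03 (SE 0.032), with an adjusted p of 0.449 from limma, and after 24 h it was 0.12, with an adjusted p of 0.00635 from limma. The enzyme for the missing amino acid was thus among the cytosolic synthetases that moved least at 12 h.

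EPRS1 (chromosome 1, 219968600 to 220046530, minus strand) charges Glu, made from Gln, and Pro. It stood at 40.2, 39.6 and 40.8 FPKM with Gln added, 60.6, 60.6 and 62.5 after 12 h and 59.98, 59.2 and 58.2 after 24 h. All 6 Gln-deprived libraries were above the 3 with Gln added, by 0.61 and 0.55 on the log2 scale (SE 0.032, largest adjusted p = 1.08e-07 from limma). Its mitochondrial counterpart for Glu, EARS2 (chromosome 16, 23520754 to 23557731, minus strand), went the other way. EARS2 also supplies mitochondria with charged Gln tRNA, since it loads Glu on that tRNA and an amidotransferase then converts it. Its values were 17.01, 17.4 and 16.8 FPKM with Gln added, 11.7, 12.1 and 11.4 after 12 h and 12.1, 11.6 and 11.03 after 24 h. No Gln-deprived library reached the lowest with Gln added, and the log2 changes were -0.54 and -0.56 (SE 0.045, largest adjusted p = 2.7e-06 from limma).

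The amidotransferase has 3 subunits, all tested. QRSL1 rose by 0.25 and 0.27 and GATC by 0.18 and 0.24 at 12 h and 24 h on the log2 scale, while GATB was at -0.25 and -0.35 (largest adjusted p of the 6 values = 0.0121 from limma). The enzyme's subunits therefore moved in both directions.

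Among synthetases for other amino acids that cells derive from Gln nitrogen or carbon, NARS1 (chromosome 18, 57600656 to 57622213, minus strand), the asparaginyl enzyme, rose. Its values were 87.2, 81.6 and 87.5 FPKM with Gln added, 146, 144 and 159 after 12 h and 156, 161 and 165 after 24 h. Every Gln-deprived library was above all with Gln added, with log2 changes of 0.81 and 0.91 (SE 0.046, largest adjusted p = 1.57e-07 from limma). AARS1 (chromosome 16, 70251983 to 70289707, minus strand), for alanine, was at 73.9, 74.6 and 75.4 FPKM with Gln added, 114, 116 and 112 after 12 h and 119, 111 and 116 after 24 h. It rose without overlap by 0.61 and 0.63 (SE 0.034, largest adjusted p = 1.47e-07 from limma).

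Over 8 genes that charge Glu, Gln, Asn, Ala and Pro in either compartment, 5 rose and 2 fell at 12 h, and 4 rose and 2 fell at 24 h. Of all genes tested, 29.1% were higher and 31% lower at 12 h, and 33% and 31.7% at 24 h. At both times rises were thus more frequent among the 8 genes than among all genes, and falls were not. How the shares of the 8 genes differ from those of the other synthetases was not tested.

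Methionyl, cysteinyl and glycyl enzymes showed the 3 largest changes at 12 h among the 39 genes. MARS1 (chromosome 12, 57475445 to 57517569, plus strand), which charges both initiator and elongator tRNA, was at 44.8, 45.1 and 43.3 FPKM with Gln added, 142, 139 and 136 after 12 h and 142, 133 and 134 after 24 h. Its lowest Gln-deprived library was far above the highest with Gln added, at 3.13 times the mean at 12 h and 3.07 times at 24 h. On the log2 scale it rose by 1.65 and 1.61 (SE 0.035, largest adjusted p = 1.56e-10 from limma). Of its exonic bases, 12.4% are shared with exons of ARHGAP9 and DDIT3 on the other strand, and whether strand was used in counting is not stated. DDIT3, itself higher by 1.72 and 1.58, had at most 1433 fragments in a library. For MARS1 the libraries with Gln added held 4317 to 4477 fragments, and the Gln-deprived libraries held 11765 to 14187. The part of the shared exons in these counts was not tested.

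CARS1 (chromosome 11, 3000922 to 3057613, minus strand), for cysteine, was the least abundant of the 12 listed ATF4 and CHOP targets. It had 7.71, 8.58 and 8.21 FPKM with Gln added, 24.7, 25.05 and 22.9 after 12 h and 25.7, 23.3 and 24.4 after 24 h. That was 2.96 and 3.00 times the mean with Gln added, without overlap (log2 changes 1.56 and 1.57, SE 0.056, largest adjusted p = 5.14e-09 from limma). GARS1 (chromosome 7, 30580533 to 30634033, plus strand), whose product works in both compartments, had 61.6, 61.6 and 62.7 FPKM with Gln added, 181, 174 and 177 after 12 h and 172, 163 and 162 after 24 h. It had the highest mean of the 39 genes in both groups of Gln-deprived libraries and was not among the 5 highest with Gln added, with log2 changes of 1.52 and 1.42 (SE 0.034, largest adjusted p = 2.2e-10 from limma).

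Seryl, threonyl and tyrosyl enzymes rose by more than 1 on the log2 scale at both times. SARS1 (chromosome 1, 109213918 to 109238182, plus strand) was at 45.1, 43.6 and 45.7 FPKM with Gln added, 115, 119 and 113 after 12 h and 118, 107 and 111 after 24 h. Its log2 changes were 1.36 and 1.32 (SE 0.042, largest adjusted p = 1.92e-09 from limma), with no overlap. TARS1 (chromosome 5, 33440696 to 33468091, plus strand) had 46.3, 44.8 and 45.5 FPKM with Gln added, 103, 104 and 105 after 12 h and 105, 98.6 and 101 after 24 h. Its groups did not overlap either, and the changes were 1.18 and 1.15 (SE 0.033, largest adjusted p = 8.95e-10 from limma). TARS3, a paralog of TARS1 that is also cytosolic, stayed between 1.78 and 1.96 FPKM in its group means and did not pass the test (0.05 and -0.08).

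YARS1 (chromosome 1, 32775237 to 32818031, minus strand) stood at 69.00, 70.3 and 69.2 FPKM with Gln added, 162, 163 and 157 after 12 h and 156, 149 and 142 after 24 h. It was higher in all 6 Gln-deprived libraries, by 1.21 and 1.10 (SE 0.038, largest adjusted p = 2.49e-09 from limma). WARS1 (chromosome 14, 100333790 to 100376805, minus strand), the tryptophanyl enzyme, also known as a gene induced by interferon, was at 31.3, 31.5 and 32.7 FPKM with Gln added, 54.7, 54.2 and 50.9 after 12 h and 62.2, 60.1 and 60.6 after 24 h. The 3 groups of WARS1 did not overlap with each other, and its log2 change went from 0.74 at 12 h to 0.93 at 24 h (SE 0.038, largest adjusted p = 7.85e-08 from limma). Of its exonic bases, 10.6% are shared with exons on the other strand.

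Isoleucyl and leucyl enzymes, both in the multi-synthetase complex, rose by 0.48 to 0.62. IARS1 (chromosome 9, 92210207 to 92293854, minus strand) had 65.5, 64.2 and 66.3 FPKM with Gln added, 101, 100.4 and 100.3 after 12 h and 95.4, 95.7 and 96.2 after 24 h, without overlap. The log2 changes were 0.62 and 0.55 (SE 0.029, largest adjusted p = 5.14e-08 from limma). LARS1 (chromosome 5, 146110566 to 146182696, minus strand), which also takes part in leucine sensing, was at 25.3, 24.4 and 25.5 FPKM with Gln added, 33.4, 34.4 and 37.3 after 12 h and 36.2, 35.3 and 36.95 after 24 h. All of its Gln-deprived libraries were above those with Gln added, by 0.48 and 0.53 (SE 0.045, largest adjusted p = 6.44e-06 from limma).

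Of the remaining cytosolic enzymes, HARS1, for histidine, rose by 0.39 and 0.42. RARS1, for arginine, fell most, by 0.49 and 0.45 on the log2 scale, from 46.6 ± 0.847 FPKM (SD, n = 3) with Gln added to 33.2 ± 1.85 after 12 h and 34.2 ± 1.47 after 24 h. KARS1, for lysine, fell by 0.22 and 0.37. Both subunits of the phenylalanyl enzyme fell together, FARSA by 0.21 and 0.22 and FARSB by 0.20 and 0.30. The largest adjusted p among these 10 values was 0.00569 from limma, for FARSA at 12 h. VARS1, for valine, had log2 changes of 0.00 and -0.03 and did not pass.

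The multi-synthetase complex did not move as a unit. Of 7 of its synthetases, EPRS1, IARS1, LARS1 and MARS1 rose and KARS1 and RARS1 fell at both times, and QARS1 rose at 24 h. Of the 13 cytosolic genes outside it, 9 rose, 2 fell and 2 did not pass at each time. Inside, 57.1% were higher and 28.6% lower at 12 h, and 71.4% and 28.6% at 24 h. Outside, the shares were 69.2% and 15.4% at each time. All genes gave 29.1% and 31% at 12 h, and 33% and 31.7% at 24 h. Medians were 0.48 inside and 0.74 outside at 12 h, and 0.53 and 0.91 at 24 h. The scaffold AIMP2 rose from 25.4 ± 1.07 FPKM (SD, n = 3) to 30.3 ± 0.658 and 31.3 ± 1.27, by 0.25 and 0.30 on the log2 scale (largest adjusted p = 0.000567 from limma). Of its exonic bases, 29.1% are shared with EIF2AK1 on the other strand. AIMP1 fell by 0.13 and 0.24, and EEF1E1 did not pass, with -0.09 and 0.03.

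Sorted by fold of the catalytic domain, both classes of synthetase held genes that rose. Among the 10 cytosolic genes of class I, 7 rose and 1 fell at 12 h, and 8 rose and 1 fell at 24 h. Among the 11 of class II, 7 rose and 3 fell at each time, with EPRS1 counted in both classes. Of the 11 cytosolic genes for essential amino acids, 6 rose and 3 fell at each time. Shares higher at 12 h were 70.0% for class I, 63.6% for class II and 54.5% for essential amino acids, against 29.1% of all genes. Lower genes then made up 10.0%, 27.3% and 27.3%, against 31%. At 24 h, 33% of all genes were higher and 31.7% lower.

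One mitochondrial synthetase rose by at least 0.5 at both times. MARS2 (chromosome 2, 197705369 to 197708395, plus strand), which provides Met-tRNA for both initiation and elongation in mitochondria, had 8.62, 8.92 and 9.07 FPKM with Gln added, 12.02, 13.1 and 13.1 after 12 h and 14.04, 13.6 and 15.1 after 24 h. No Gln-deprived library overlapped with those of Gln added, and the changes were 0.52 and 0.68 (SE 0.053, largest adjusted p = 1.23e-05 from limma). Over the alternatives the value at 12 h ran from 0.48, which lies under 0.5, to 0.56 without replicate 1 of that group.

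Smaller rises were called for TARS2 at both times (0.20 and 0.21) and for NARS2 and PARS2 at 12 h (0.19 and 0.29). Beside EARS2, the falls at both times were those of LARS2 (-0.29 and -0.45), IARS2 (-0.26 and -0.43), SARS2 (-0.22 and -0.47), CARS2 (-0.23 and -0.26) and AARS2 (-0.17 and -0.17). RARS2 and VARS2 fell at 12 h alone by this threshold (-0.15 and -0.11), and WARS2 and YARS2 at 24 h (-0.25 and -0.16). HARS2 and FARS2 passed at neither time. The levels of SARS2 and VARS2 are uncertain, since 48.2% and 63.0% of their exonic bases are shared with other genes on the same strand, and YARS2 shares 18.1% with the other strand. The calls of AARS2 at both times, of NARS2, PARS2, RARS2, TARS2 and VARS2 at 12 h and of WARS2 and YARS2 at 24 h each ended when 1 library was left out, as did that of AIMP1 at 12 h.

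HARS1 and HARS2 start 85 bases apart on opposite strands of chromosome 5, at 140691370 and 140691455 by RefSeq. HARS1 was at 32.8, 33.2 and 31.2 FPKM with Gln added, 41.99, 42.1 and 43.6 after 12 h and 45.7, 41.8 and 42.5 after 24 h, and rose. HARS2 was at 12.1, 11.9 and 11.8, 12.5, 11.9 and 12.3 and 13.8, 11.6 and 12.6 FPKM in the same libraries. Its groups overlapped at both times, with log2 changes of 0.03 and 0.08 that did not pass the test. HARS1 shares 8.46% of its exonic bases, and HARS2 2.90%, with genes on the other strand.

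To compare the compartments for the same amino acid, the ratio of the cytosolic to the mitochondrial gene was taken in each library for 16 pairs, with EPRS1 set against both EARS2 and PARS2. At 12 h the ratio was higher in every Gln-deprived library than in any with Gln added for 14 pairs and lower for 1, RARS1 to RARS2. At 24 h it was higher for 13 pairs and lower for 2, RARS1 to RARS2 and FARSA to FARS2. Each separation has p = 0.1 in a two-sided exact permutation test, the smallest that 3 libraries against 3 allow. Separation was common: of all single genes tested, 32.8% lay above and 34.4% below at 12 h, and 35.7% and 34.1% at 24 h. The share for ratios of other gene pairs was not computed, and the pairs that hold EPRS1 share its values. The largest shifts were those of CARS1 to CARS2, with log2 shifts of 1.78 and 1.84 at 12 h and 24 h, and of SARS1 to SARS2, by 1.58 and 1.79. EPRS1 to EARS2 shifted by 1.15 and 1.11, and MARS1 to MARS2, where both genes rose, by 1.13 and 0.94.

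The direct comparison of 24 h with 12 h gave few differences. Of the 39 genes, 1 was higher and 4 were lower at 24 h at an adjusted p under 0.05 from limma, against 9.57% and 10.5% of all genes tested, so that the share of lower calls (10.3%) was near that of all genes. Without overlap between the times, 3 genes (7.69%) lay higher and 11 (28.2%) lower at 24 h, against 17.5% and 16.9% of all genes, so that by this count lower genes were more frequent and higher genes less frequent than among all genes. WARS1 rose further, by 0.19 (adjusted p = 0.00543 from limma). Of the 4 that were lower at 24 h than at 12 h, SARS2 (-0.26), IARS2 (-0.16) and WARS2 (-0.28) are mitochondrial and KARS1 (-0.15) serves both compartments. The largest adjusted p among them was 0.0441 from limma, for KARS1. SARS2 stood at 14.8, 13.9 and 14.5 FPKM with Gln added, 12.6, 12.4 and 12.2 after 12 h and 10.9, 10.2 and 9.86 after 24 h, and IARS2 at 73.4, 72.9 and 77.2, 63.7, 59.1 and 63.5 and 54.7, 54.99 and 56.5. Both stepped down from group to group without overlap. In WARS2 the values were 4.95, 5.79 and 5.05, 5.32, 5.88 and 4.90 and 4.11, 4.69 and 4.41 FPKM, and the libraries with Gln added overlapped with those at 12 h. KARS1 was at 64.8, 62.1 and 68.2, 56.7, 54.4 and 55.8 and 52.6, 50.2 and 47.7 FPKM, with 3 separate groups. The calls of KARS1 and WARS2 between the times were lost under 10 and 9 of 19 alternatives, and that of IARS2 without replicate 1 of the 12 h group (log2 difference -0.14).

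Around the synthetases, genes listed for the sensing of uncharged tRNA and the response that follows it were mostly higher. Charging of tRNA itself was not measured. Of 11 listed, 10 were tested, and 8 rose and 1 fell at both times. That is 80.0% and 10.0%, against 29.1% and 31% of all genes at 12 h and 33% and 31.7% at 24 h. ATF4 itself rose by 0.88 and 0.85, while its upstream kinase EIF2AK4 fell by 0.34 and 0.35, and GCN1, its partner, did not pass (-0.05 and 0.04). CHAC1 was below the filter. XPOT, which exports tRNA from the nucleus, was at 31.1, 30.9 and 31.5 FPKM with Gln added, 71.1, 70.3 and 72.97 after 12 h and 67.6, 66.4 and 66.9 after 24 h. It rose without overlap by 1.19 and 1.10 (SE 0.031, largest adjusted p = 6.98e-10 from limma), the largest change in its list of 5 genes for tRNA ends and export. Of these 5 genes, 3 rose and 1 fell at 12 h, against 29.1% and 31% of all genes. At 24 h, 2 rose and 1 fell, against 33% and 31.7%.

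The lists for other steps in the life of a tRNA held genes that rose and genes that fell. Of 7 genes that deliver charged tRNA to the ribosome, EEF1A1 and EEF1D rose and TSFM, a mitochondrial factor, fell at both times (-0.36 and -0.34). Their shares, 28.6% higher and 14.3% lower, stand beside 29.1% and 31% of all genes at 12 h. At 24 h those of all genes were 33% and 31.7%, so that the rises were near the share of all genes. Of 7 genes of selenocysteine and formyl-methionine tRNA, 2 rose (28.6%) and 1 fell (14.3%) at 12 h, and 1 rose (14.3%) and 3 fell (42.9%) at 24 h. SEPSECS, which makes selenocysteine on its tRNA, rose by 0.45 and 0.55, while SEPHS2, which makes the selenium donor, fell (-0.25 and -0.29). Of 4 editing factors, which remove wrong amino acids from tRNA, 2 were tested, and DTD1 rose (0.27 and 0.18) while DTD2 fell (-0.34 and -0.24). RNA polymerase III, which makes tRNA, was listed with its transcription factors and its repressor MAF1, 22 genes in all. Of these, 8 rose and 8 fell at 12 h and 9 rose and 9 fell at 24 h. That is 36.4% each way at 12 h, against 29.1% and 31% of all genes, and 40.9% each way at 24 h, against 33% and 31.7%. Changes of at least 0.5 were found in 5 genes upwards and 2 downwards at 12 h and in 4 and 2 at 24 h. Among these, POLR3C rose by 0.85 and 0.72, POLR3D by 0.84 and 0.91 and POLR3E by 0.77 and 0.76, while POLR3G fell (-0.75 and -0.74), as did POLR3K (-0.52 and -0.69). The repressor MAF1 was also among those upwards, by 0.52 and 0.55. The largest adjusted p among the called values of the genes named here was 0.0282 from limma, for EEF1A1 at 12 h.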

How the data were processed

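RNA-seq of HepG2 cells (3 libraries per group) was analysed. Values were deposited by the authors as FPKM, 1 column per library. According to the methods, reads were aligned to GRCh38 with STAR and tested with DESeq2, and the submitters' processing notes name HTSeq and R 3.2.0. The annotation used for counting and the use of strand in it are not given in the sources used here, and the labels name another library kit than the methods. FPKM are not counts, so log2(FPKM + 0.1) was tested with limma 3.58.1 in R 4.3.3 (lmFit, eBayes with a trend), with 9 libraries in 1 fit, a mean of at least 0.5 FPKM and Benjamini-Hochberg adjustment over 11880 genes. A change on this scale understates that of genes near 0.1 FPKM. FPKM of a gene came in whole multiples of a step, from which whole fragments were solved for 100% of genes (within 0.02 fragments), and limma's voom on them was an alternative. No replicate pair agreed within sampling noise, so none was merged.

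Of the 41 genes, 2 are not reported here. Genes and lists were chosen with earlier results of these data known. Values by library were given for genes with an adjusted p under 0.05 and a log2 change of at least 0.5 at either time, and for QARS1, EPRS1 and EARS2, and HARS1, HARS2, SARS2, IARS2, WARS2, KARS1 and XPOT were added after their values were seen. Of the other lists the 3 with the largest changes could be named, and ATF4, EIF2AK4, GCN1, CHAC1, DDIT3, EEF1A1, EEF1D, POLR3K and MAF1 were named outside that rule. Positions come from GENCODE v44 on GRCh38, promoters from RefSeq on GRCh38.p14. Other pseudocounts, filters, scalings, sample sets, a replicate block, eBayes without a trend and each library left out were tried. The test was checked on simulated data. Plots used matplotlib 3.10.9 (Python 3.11.15).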

Additional observations from a re-analysis of the deposited data

Results flagged for a closer look

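The tested difference between 24 h and 12 h of Gln deprivation singled out 5 genes, each with a change against Gln added that differed between the times. On the log2 scale, WARS1 was higher at 24 h by 0.19. The difference was -0.28 for WARS2, -0.26 for SARS2, -0.16 for IARS2 and -0.15 for KARS1, all with limma over all genes tested. In WARS1, the cytosolic enzyme for tryptophan, and WARS2, its mitochondrial counterpart, the differences had opposite signs. SARS2 shares 48.2% of its exonic bases with a neighbour on its strand, whose part in the value was not tested.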

How the results depend on the processing

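Across 19 alternatives, the 66 calls gave 1254 values, of which 1175 stayed past the threshold in the same direction, 79 fell short and 0 reversed. None of the 27 calls with a log2 change of at least 0.5 was lost. At least 1 alternative ended 13 small calls: AARS2 at both times, AIMP1, NARS2, PARS2, RARS2, TARS2 and VARS2 at 12 h, WARS2 and YARS2 at 24 h, and IARS2, KARS1 and WARS2 between 24 h and 12 h. Each of the 13 ended when 1 library was left out, which held for 1 library (IARS2) to 7 libraries (AARS2 at either time), and the adjusted p from limma then reached 0.0675 (IARS2) to 0.151 (KARS1). With each library left out, 15 to 18 genes were higher and 9 to 13 lower at 12 h, and 17 to 19 and 11 to 13 at 24 h. Between 24 h and 12 h, 1 gene was higher and 4 lower, against 1 to 2 and 1 to 6 with a library left out. Most moved were the lower counts without replicate 1 with Gln added (2), replicate 1 at 12 h (1) and replicate 3 at 24 h (2), and the higher counts without replicate 3 at 12 h (2) and replicate 1 at 24 h (2). Higher genes numbered 3 with FPKM rescaled to the same total and 2 with the replicate block, and lower genes 2 with eBayes without a trend, with no filter and with only the 2 groups compared. The cause was not tested.

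Same-numbered libraries correlated by -0.14 to 0.28, so numbers do not pair them, and the replicate block moved no other count by over 1.5 times. The pairs shifted towards the mitochondrial gene at 12 h numbered 2 with a pseudocount of 1 and 1 to 2 with a library left out (2 without replicate 1 at 12 h). With the 250 bases before the start alone, 3 of 33 promoters held the C/EBP-ATF response element (3.19% of all promoters), since 4 of its 7 matches reach past the start. Rescaling to the same total moved the median of all genes at 24 h to 0.06. Genes of few fragments, such as PARS2 with 179 to 204 per library with Gln added, limit small changes, and intervals were not computed from fragments.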
